A study of Homo sapiens with 3 samples.

Results

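The genes described here are 54 components and regulators of DNA replication and of the step from G1 into S phase. They are the subunits of the origin recognition complex (ORC1 to ORC6), the MCM helicase, the replicative polymerases with their clamp and clamp loader, enzymes of deoxynucleotide synthesis, and the E2F transcription factors with a few other G1/S regulators. Members were chosen by name: every probe set with a single gene symbol on the list was used, and a gene measured by several was given their median. All 54 were measured, by 100 of the 54675 probe sets of the array, among 19775 genes in all. The cells were T47D, an established human breast cancer line that carries the estrogen and progesterone receptors. All cultures were kept for 4 h in medium with 10% charcoal-stripped serum, which holds little steroid. They then received 0.1% ethanol (vehicle), 1 uM estradiol, the hormone that activates the estrogen receptor, or 1 uM tamoxifen, a drug that modulates that receptor, for 3 h. Each treatment was measured on 1 Affymetrix array of total RNA, so no group had a replicate, no test of a difference between treatments was possible, and every value below describes these 3 arrays.

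Replication is prepared in G1, when the origin recognition complex, CDC6 and CDT1 load the ring of MCM2 to MCM7 onto DNA. At the start of S phase the kinase CDC7 with its activator DBF4, together with MCM10, CDC45 and the GINS complex, turns the loaded ring into a moving helicase. Primase and DNA polymerases alpha, delta and epsilon then copy the strands, while RFC loads the sliding clamp PCNA and RPA covers single strands. Many of these genes are transcribed under E2F factors, which are released when cyclin-dependent kinases phosphorylate the retinoblastoma protein. Estrogen is known to move receptor-positive breast cancer cells from G1 into S phase, and tamoxifen is known to hold them in G1.

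Promoters of the members were searched for E2F sites first, because E2F factors are the known activators of this set. Promoter windows of 300 bases, from 250 before to 50 after the start of transcription, were held for 47 of 54 members in a RefSeq table of build GRCh38.p14. The E2F words searched were TTTCCCGC, TTTCGCGC, TTTGCCGC and TTTGGCGC on both strands, with overlapping matches counted. At least 1 was found for 24 of 47 members (51.1%) and for 5.36% of 15382 measured genes with such a window. Over single windows, of which a gene can have several, the shares were 41.0% of 61 and 4.07% of 21485. The sequences below are 100 bases, from 90 before to 10 after the start, of members that were past 2-fold, or the highest or lowest of their role group against vehicle, and hold a match in that stretch. They are written 5′ to 3′ on the strand of the gene, with the E2F word in capitals. The first set belongs to members that were lower on the treated arrays than on the vehicle array.
CDT1 (chr16:88803699-88803798, plus strand): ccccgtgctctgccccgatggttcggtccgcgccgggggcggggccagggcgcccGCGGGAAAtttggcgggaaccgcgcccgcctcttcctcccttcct
MCM7 (chr7:100101388-100101487, minus strand): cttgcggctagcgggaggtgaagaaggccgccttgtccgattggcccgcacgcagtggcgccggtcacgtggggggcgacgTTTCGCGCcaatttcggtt
GINS3 (chr16:58392381-58392480, plus strand): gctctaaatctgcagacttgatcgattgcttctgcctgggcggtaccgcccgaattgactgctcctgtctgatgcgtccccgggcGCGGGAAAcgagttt
POLE (chr12:132687333-132687432, minus strand): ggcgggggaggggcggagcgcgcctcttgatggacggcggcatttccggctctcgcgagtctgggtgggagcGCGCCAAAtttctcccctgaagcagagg
E2F1 (chr20:33686376-33686475, minus strand): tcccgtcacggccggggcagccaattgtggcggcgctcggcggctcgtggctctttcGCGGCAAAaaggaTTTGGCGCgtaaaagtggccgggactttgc

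The second set belongs to members that were higher on the treated arrays, and GCGGGAAA, the reverse complement of TTTCCCGC, stands in both sets.
ORC3 (chr6:87590045-87590144, plus strand): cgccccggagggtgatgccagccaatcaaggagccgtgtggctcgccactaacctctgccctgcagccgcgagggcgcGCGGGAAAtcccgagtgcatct
POLE2 (chr14:49688205-49688304, minus strand): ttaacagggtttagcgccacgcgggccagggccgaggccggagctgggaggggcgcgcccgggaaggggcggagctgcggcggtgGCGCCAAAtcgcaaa
RFC3 (chr13:33818059-33818158, plus strand): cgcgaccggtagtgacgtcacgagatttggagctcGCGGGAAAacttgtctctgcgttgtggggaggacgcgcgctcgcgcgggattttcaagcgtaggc
TYMS (chr18:657563-657662, plus strand): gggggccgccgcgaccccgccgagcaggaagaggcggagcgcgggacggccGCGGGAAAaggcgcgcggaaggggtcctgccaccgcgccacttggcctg

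In CDT1 the word began 35 bases before the start, in POLE 18 and in RFC3 55. E2F1 held matches beginning 33 and 20 bases before its own start. A match is a run of letters and was not tested as a binding site. ORC1, ORC5, PRIM2, RFC5, TK1 and SLBP, each at an end of its role group in some comparison, had a window without a match. The palindromic estrogen response element, GGTCA and TGACC with NNN between them, was found for 0 of 47 members and 0.046% of genes, and its single arm GGTCA, searched on both strands and contained in the full element, for 42.6% of members and 42.5% of genes. The CCAAT box (CCAAT, both strands) was found for 59.6% of members and 41.7% of genes, and TTTGAA, the cell cycle homology region of genes used late in the cycle, for 6.38% and 15.6%.

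The deposited values, made with RMA, were taken as log2, and a centre subtracted per probe set was inferred. On that reading levels are not kept, whereas differences between arrays are. Defining markers of the labelled cell type could therefore not be checked by level. Differences below are relative to the median difference of all genes, which was -0.0057 for estradiol and 0.10 for tamoxifen against vehicle, and 0.11 between the treated arrays. The vehicle array stood apart in several control probe sets: 18S ribosomal RNA was 1.86 and 1.96 higher on the estradiol and tamoxifen arrays. For 28S ribosomal RNA the 5′ probe set differed by 2.08 and 2.20 from vehicle, but the 3′ probe set by only 0.074 and 0.045. Polyadenylated bacterial spikes were 0.70 and 0.49 higher than on vehicle. The difference of ACTB signal between its 3′ and 5′ probe sets was -0.78 and -0.77 relative to vehicle. Hybridisation spikes differed by -0.92 between the tamoxifen and vehicle arrays and by -0.85 between tamoxifen and estradiol. The part of these control differences in the members' values was not tested. Of 18 markers of fibroblasts, leukocytes, endothelium and basal epithelium, 16 were measured and 0 differed 2-fold in any comparison. Of all genes 3.31% (estradiol) and 3.43% (tamoxifen) did so against vehicle, and 0.228% between the treated arrays. So few markers are not set apart by that count. Against vehicle, the fibroblast markers COL1A1 and LUM were past 1.5-fold on both treated arrays, COL1A1 lower and LUM higher. Of 9 luminal markers, only PGR, the progesterone receptor gene, was past 2-fold, higher on both treated arrays than on vehicle. The cells were not sorted, so fewer cells in a phase of the cycle and less RNA per cell cannot be told apart.

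As deposited, the vehicle array held the highest of the 3 values for 28 of 54 members (51.9%), against 33.6% of all genes. It was the array with the highest member value of the licensing gene ORC1, at 0.89, whereas the highest on the estradiol and tamoxifen arrays belonged to the clamp loader subunits RFC3, at 0.94, and RFC5, at 1.04. The lowest member values were those of DBF4 on the vehicle array (-0.30), POLD2 on the estradiol array (-0.90) and PRIM2 on the tamoxifen array (-0.995). The plot of values by array shows 9 of the 14 licensing genes, POLD1, POLD2, POLD3 and POLE with the vehicle array on top, and RFC3, RFC5 and POLE2 with the vehicle array at the bottom.

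**Figure D1:**
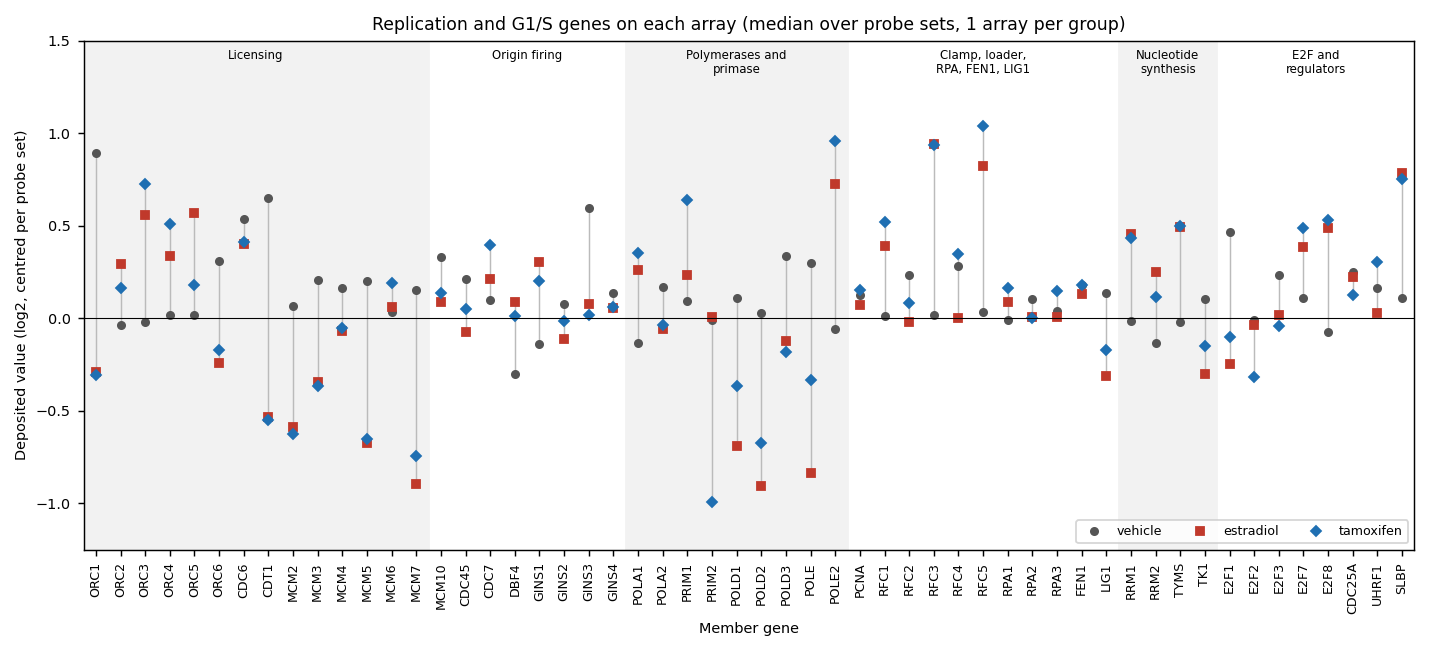
Deposited values, taken as log2 and as centred per probe set, of the 54 members (median over probe sets) on the vehicle (circles), estradiol (squares) and tamoxifen (diamonds) arrays, 1 array each, grouped by role. ORC1 was at 0.89 on the vehicle array and at -0.29 and -0.31 on the treated arrays, whereas RFC5 was at 0.031 and at 0.82 and 1.04.

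The first comparison asks how estradiol for 3 h differed from vehicle. Origin licensing genes were mostly lower on the estradiol array: ORC1 was 2.26-fold, CDT1 2.26-fold and MCM7 2.06-fold lower, and POLE, the catalytic subunit of polymerase epsilon, 2.19-fold. Of the 5 clamp loader genes 3 lay above the all-gene median and 2 below. Of the 4 nucleotide synthesis genes 3 lay above and 1 below, none of them past 1.5-fold. RFC3 was 1.90-fold and RFC5 1.72-fold higher, though the RFC3 probe sets ran from -0.043 to 2.92. In all, 4 of 54 members (7.41%) were at least 2-fold lower and 0 at least 2-fold higher, whereas 1.68% of all genes were that much lower and 1.62% that much higher, 3.31% either way. Of the members, 32 lay below the all-gene median and 22 above it, with a median of -0.061 and an interquartile range of 0.77, against 0.45 for all genes. With probe sets averaged, RFC3 was also past 2-fold, at 1.27, and CDT1, MCM7 and POLE rest on probe sets with the suffixes _s_at and _x_at, which can match more than 1 transcript.

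Within licensing, ORC1, an ATP-binding subunit of the origin recognition complex, read 0.89 on the vehicle, -0.29 on the estradiol and -0.31 on the tamoxifen array. The vehicle array was high and the treated arrays lay together, which gave a difference of -1.18 for estradiol, lower than in all but 0.74% of genes. The other subunits did not share this value: ORC6 was at -0.54, whereas ORC2 (0.34), ORC3 (0.58), ORC4 (0.32) and ORC5 (0.73) lay above 0. ORC2 had probe sets at -0.13 and 0.048 on the vehicle, 0.60 and -0.019 on the estradiol and 0.46 and -0.13 on the tamoxifen array, with estradiol differences of opposite sign, 0.74 and -0.061. The single probe set of ORC3, of suffix _s_at, read -0.020, 0.56 and 0.73 in the same order, and vehicle was lowest. The probe sets of ORC4 read 0.016 and 0.023, 0.35 and 0.32, and 0.40 and 0.61, so that vehicle was lowest in both. ORC5 had probe sets at 0.24, 0.016 and -0.16 on the vehicle, -0.12, 1.12 and 0.57 on the estradiol and -0.015, 1.21 and 0.18 on the tamoxifen array. They did not share a direction, with estradiol differences of -0.36, 1.11 and 0.73. CDT1, which brings the MCM ring to origins, had 2 probe sets that read 0.57 and 0.73 on the vehicle, -0.66 and -0.41 on the estradiol, and -0.75 and -0.35 on the tamoxifen array. Both placed vehicle above the treated arrays, with estradiol differences of -1.22 and -1.14. CDC6, its partner in loading, was at -0.13 as the median of probe sets at -0.42 and 0.16.

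Of the 6 ring subunits, 5 lay below the all-gene median and 3 were at least 1.5-fold lower. MCM7 had probe sets at 0.11 and 0.20 on the vehicle, -0.80 and -0.99 on the estradiol and -0.54 and -0.94 on the tamoxifen array, so that vehicle was again highest in both. Its estradiol difference was -1.04. MCM5 was at -0.87, MCM2 at -0.65, MCM3 at -0.54 and MCM4 at -0.18, and MCM6 at 0.035. The 5 probe sets of MCM4 ran from -0.66 to 0.51, so no direction can be given for it. Over the 14 licensing genes 9 lay below the all-gene median and 5 above, the group median was -0.36, and 5 were at least 1.5-fold lower and 1 higher, against 8.74% and 6.42% of all genes.

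Among the 8 genes of origin firing none passed 1.5-fold with estradiol, where 15.2% of all genes did. So small a group is not set apart by that count. Values ran from -0.52 for GINS3 to 0.45 for GINS1, which are subunits of the same 4-part GINS complex. GINS1 read -0.14 on the vehicle, 0.30 on the estradiol and 0.20 on the tamoxifen array, with vehicle lowest. The kinase CDC7 read 0.10, 0.21 and 0.40 in the same order and was at 0.12, its activator DBF4 at 0.40, CDC45 at -0.28 and MCM10 at -0.24. The 3 MCM10 probe sets read -0.95, -0.24 and 0.14.

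The polymerases spread more widely. POLE read 0.30 on the vehicle, -0.83 on the estradiol and -0.33 on the tamoxifen array, all from 1 probe set of suffix _s_at, and its estradiol difference was -1.13. The tamoxifen array lay between the others. POLD2 (-0.93) and POLD1 (-0.79), the accessory and catalytic subunits of polymerase delta, were lower too. POLE2, the second subunit of polymerase epsilon, read -0.057, 0.73 and 0.96 in the same order and was at 0.79. It was thus on the opposite side from its partner POLE. Of polymerase alpha, POLA1 was at 0.40 and POLA2 at -0.22, and the primase subunits PRIM1 and PRIM2 were at 0.15 and 0.020. The group of 9 had a median of -0.22, with 3 members at least 1.5-fold lower and 1 higher, against 8.74% and 6.42% of all genes.

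Of the 11 genes of the clamp, its loader, RPA and Okazaki fragment processing, 2 were at least 1.5-fold higher and 0 lower, against 6.42% and 8.74% of all genes. RFC5 had 3 probe sets at 0.020 to 0.044 on the vehicle, 0.75 to 1.23 on the estradiol and 0.88 to 1.33 on the tamoxifen array. Every RFC5 probe set was lowest with vehicle, and the estradiol difference was 0.78. RFC3 had probe sets at 0.018, -0.017 and 0.063 on the vehicle, 0.94, 2.90 and 0.014 on the estradiol and 0.94, 2.68 and -0.026 on the tamoxifen array. It was at 0.93, but the estradiol differences of the 3 ran from -0.043 to 2.92. RFC1, the large subunit, was at 0.32, and RFC2 and RFC4 were at -0.25 and -0.28. RFC4 read 0.28, 0.00030 and 0.35 on the vehicle, estradiol and tamoxifen arrays, with estradiol lowest. The clamp PCNA, a classic S phase marker, read 0.13, 0.074 and 0.16 in the same order and was at -0.049. All arrays lay close together for PCNA. The RPA subunits lay between -0.088 and 0.13, the flap nuclease FEN1 was at -0.039 from probe sets of opposite sign (-0.46 and 0.38), and the ligase LIG1 was at -0.45. LIG1 read 0.14 on the vehicle, -0.31 on the estradiol and -0.17 on the tamoxifen array, with vehicle highest.

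In deoxynucleotide synthesis TYMS, thymidylate synthase, was at 0.52, RRM1 and RRM2, the subunits of ribonucleotide reductase, at 0.48 and 0.39, and TK1, thymidine kinase of the salvage route, at -0.40. The RRM1 value is the midpoint of probe sets at 1.25 and -0.29. RRM2 had probe sets at -0.070 and -0.20 on the vehicle, 0.22 and 0.27 on the estradiol and -0.14 and 0.37 on the tamoxifen array, so that both were higher with estradiol than with vehicle. The 3 TYMS probe sets read -0.071, -0.019 and 0.11 on the vehicle, 1.09, 0.49 and 0.23 on the estradiol and 1.24, 0.50 and -0.055 on the tamoxifen array, and their estradiol differences all lay above 0, from 0.12 to 1.16. TK1 had probe sets at 0.15 and 0.066, -0.24 and -0.35, and -0.045 and -0.25 in the same order, with vehicle highest in both. Of the G1/S regulators E2F1 was lowest. Its 2 probe sets read 0.38 and 0.55 on the vehicle, -0.37 and -0.12 on the estradiol and -0.23 and 0.031 on the tamoxifen array, so vehicle was highest in both and the difference was -0.70. The other activator E2Fs were at -0.024 (E2F2) and -0.21 (E2F3), and the repressor E2Fs at 0.28 (E2F7) and 0.57 (E2F8). Probe sets of opposite sign lay behind E2F3 (-0.44 and 0.021) and E2F7 (-0.11 and 0.67), and E2F8 had 1 probe set. E2F2 had probe sets at -0.0082, 0.92 and -0.033 on the vehicle, -0.038, -0.26 and 0.27 on the estradiol and 0.25, -0.34 and -0.32 on the tamoxifen array. They disagreed, with estradiol differences of -0.024, -1.18 and 0.31, so no direction can be given for E2F2. SLBP, which binds histone messenger RNA, read 0.11, 0.78 and 0.75 and was highest of the group at 0.68. The phosphatase CDC25A was at -0.025, over probe sets from -0.74 to 0.29. UHRF1, which maintains DNA methylation, read 0.17 on the vehicle, 0.028 on the estradiol and 0.30 on the tamoxifen array and was at -0.13. In the plot of differences from vehicle the estradiol symbols of licensing genes reach from -1.18 to 0.73 and those of origin firing stay between -0.52 and 0.45.

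**Figure D2:**
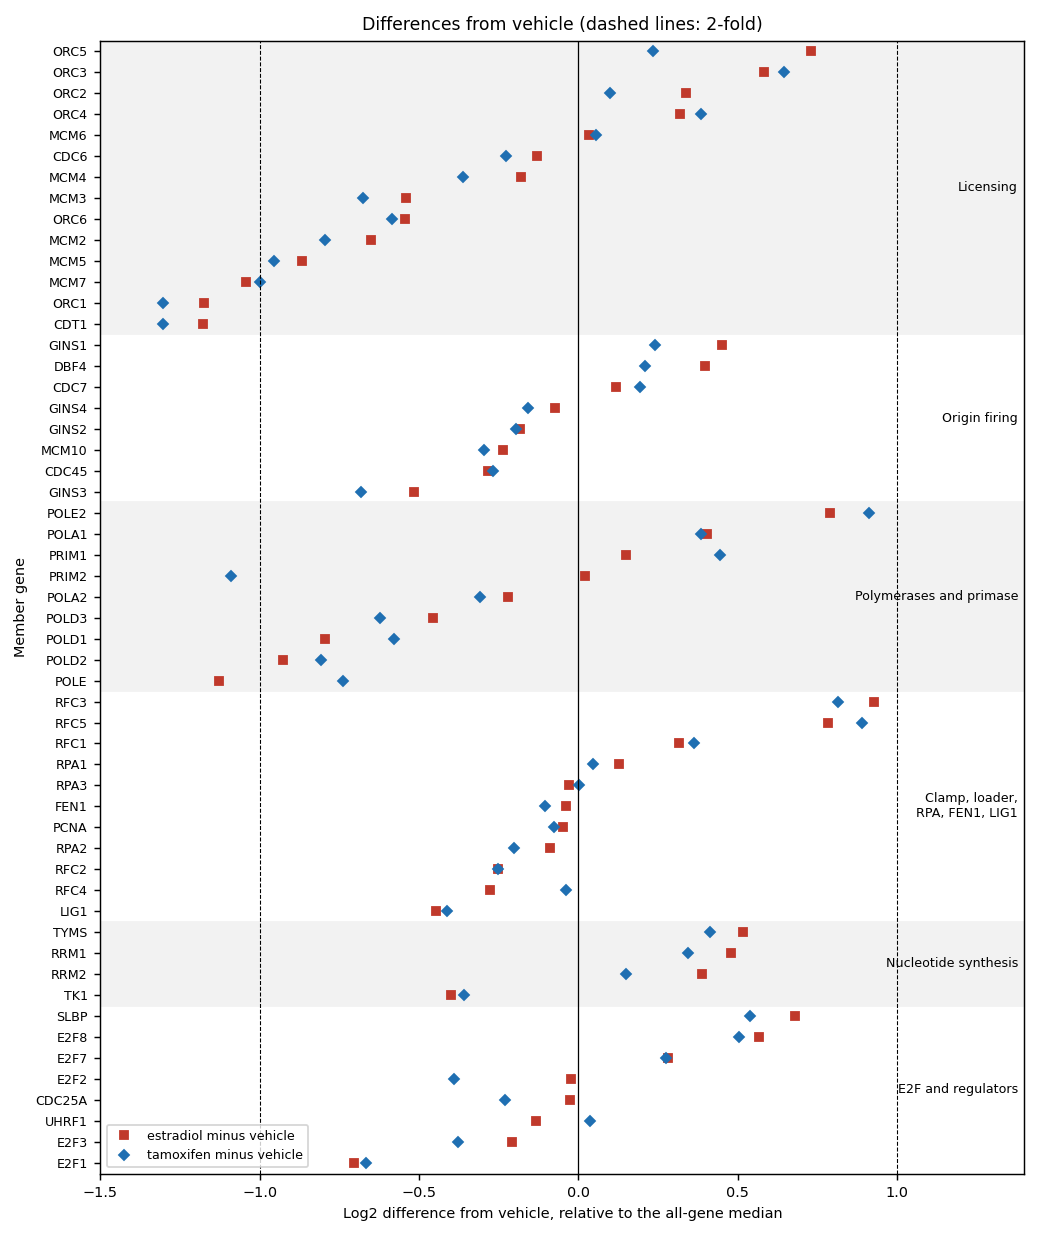
Log2 differences from the vehicle array, relative to the all-gene median, for estradiol (squares) and tamoxifen (diamonds), with genes ordered by the estradiol value within each role group and dashed lines at 2-fold. Both comparisons use the same vehicle array, so nearness of the symbols is no independent agreement. PRIM2 has its estradiol symbol at 0.020 and its tamoxifen symbol at -1.09.

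The next comparison sets tamoxifen against vehicle at the same time of 3 h. ORC1 and CDT1 were the lowest members, both 2.47-fold lower on the tamoxifen array, followed by PRIM2, the large primase subunit, 2.13-fold, and MCM7, 2.00-fold lower. POLE2 (1.88-fold), RFC5 (1.85-fold) and RFC3 (1.76-fold) were the highest. At least 2-fold differences were seen for 4 of 54 members (7.41%) below and 0 above, against 1.79% and 1.65% of all genes, 3.43% either way. The members' median was -0.18, with 31 below the all-gene median and 23 above and an interquartile range of 0.78 against 0.48 for all genes. In the values as deposited 2 members were at least 2-fold lower (ORC1 and CDT1) and 1 higher (POLE2), against 3.26% of all genes either way. This comparison shares the vehicle array with the first, and the values of the comparisons are therefore given side by side only.

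In the licensing group 6 of 14 genes were at least 1.5-fold lower with tamoxifen and 1 higher, against 8.87% and 6.35% of all genes, and the group median was -0.47. ORC1 was at -1.30 and ORC6 at -0.58, whereas ORC2 (0.10), ORC3 (0.64), ORC4 (0.38) and ORC5 (0.24) lay above 0. The ORC2 probe sets were at 0.48 and -0.28, and those of ORC5 at -0.36, 1.09 and 0.24, and without the one of suffix _s_at ORC5 turned to -0.068. The CDT1 probe sets were at -1.42 and -1.18. The ring subunits MCM5 (-0.96), MCM2 (-0.79) and MCM3 (-0.68) were lower beside MCM7 (-1.001), whose value sits on the 2-fold line, and MCM6 was at 0.055. MCM5 had probe sets at -0.71 and -1.20. MCM4 was at -0.36 over probe sets from -0.83 to 0.78.

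Of the origin firing genes GINS3 was lowest. Its 2 probe sets read 0.60 and 0.60 on the vehicle, 0.15 and 0.00055 on the estradiol and 0.098 and -0.063 on the tamoxifen array, a tamoxifen difference of -0.68. The other GINS subunits lay between -0.20 and 0.24, with GINS1 highest, and CDC7 was at 0.19. Of the polymerase genes, 4 were at least 1.5-fold lower (PRIM2, POLD2, POLE and POLD3) and 1 higher (POLE2, 0.91), against 8.87% and 6.35% of all genes. POLD2 was at -0.81, POLE at -0.74, POLD3 at -0.62 and POLD1 at -0.58. POLA1 was at 0.39 and PRIM1, the catalytic primase subunit, at 0.45.

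PCNA was at -0.076, RFC4 at -0.038, LIG1 at -0.41 and FEN1 at -0.10 with tamoxifen. RFC5 had probe sets from 0.74 to 1.21, all above 0, and RFC3 from -0.19 to 2.60. TYMS was at 0.41, RRM1 at 0.34, RRM2 at 0.15 and TK1 at -0.36, and the RRM1 probe sets again lay on opposite sides, at 1.25 and -0.56. So did those of RRM2, at -0.17 and 0.47, and of TYMS, from -0.27 to 1.21, and without the probe set of suffix _s_at RRM2 turned to -0.18. Nucleotide synthesis had a group median of 0.25, with 3 of 4 genes above the all-gene median. E2F1 was at -0.67, E2F2 at -0.39, E2F3 at -0.38, E2F7 at 0.28, E2F8 at 0.50, SLBP at 0.54 and UHRF1 at 0.036. The 3 E2F2 probe sets read -1.36, -0.39 and 0.16, those of CDC25A -0.78, -0.23 and 0.60, and those of E2F7 -0.023 and 0.57.

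The third comparison, tamoxifen against estradiol, does not use the vehicle array. Here 53 of 54 members were within 1.5-fold and 1 (1.85%) was past it, a share near the 2.11% of all genes. PRIM2 alone was past 1.5-fold and 2-fold, on the lower side, where 1.22% and 0.202% of all genes lay, and 0.0253% of all genes were at least 2-fold higher. The members' interquartile range was 0.16, against 0.27 for all genes, and their median was -0.040. Relative to the all-gene median 35 lay below and 19 above, but as deposited 17 lay below 0 and 37 above, so the direction of so small a shift depends on the centring.

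PRIM2 read -0.0071 on the vehicle, 0.0071 on the estradiol and -0.995 on the tamoxifen array. The vehicle and estradiol values lay together and tamoxifen alone was low, for a difference of -1.12 (2.17-fold lower than with estradiol), below all but 0.12% of genes. It rests on 1 probe set, and its partner PRIM1 was at 0.29 in the same comparison. PRIM2 is known to have near-identical copies in the genome, and whether this probe set also matches them was not tested. Hybridisation spikes differed by -0.85 in the same comparison, and the part of this in the PRIM2 value was not tested.

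The next widest values were those of POLE, at 0.39, and PRIM1, followed by RRM2 (-0.25), ORC2 (-0.24) and RFC4 (0.23). The 2 RRM2 probe sets disagreed here, at -0.47 and -0.016, and those of E2F2 ran from -0.70 to 0.17. UHRF1 was highest of the regulators at 0.16 and CDC7 highest of origin firing at 0.069. The 4 GINS subunits lay between -0.22 and -0.019, the 6 ring subunits between -0.15 and 0.036, and the 5 RFC subunits between -0.15 and 0.23. Single probe sets spread more widely, from -0.59 to 0.27 for MCM4, -0.41 to 0.22 for MCM5 and -0.45 to 0.27 for GINS4. By role, group medians were -0.088 for licensing, -0.064 for origin firing, 0.11 for polymerases, -0.0079 for the clamp group, -0.12 for nucleotide synthesis and -0.058 for G1/S regulators. The plot of tamoxifen against estradiol shows every point but PRIM2 far inside the 2-fold lines.

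**Figure D3:**
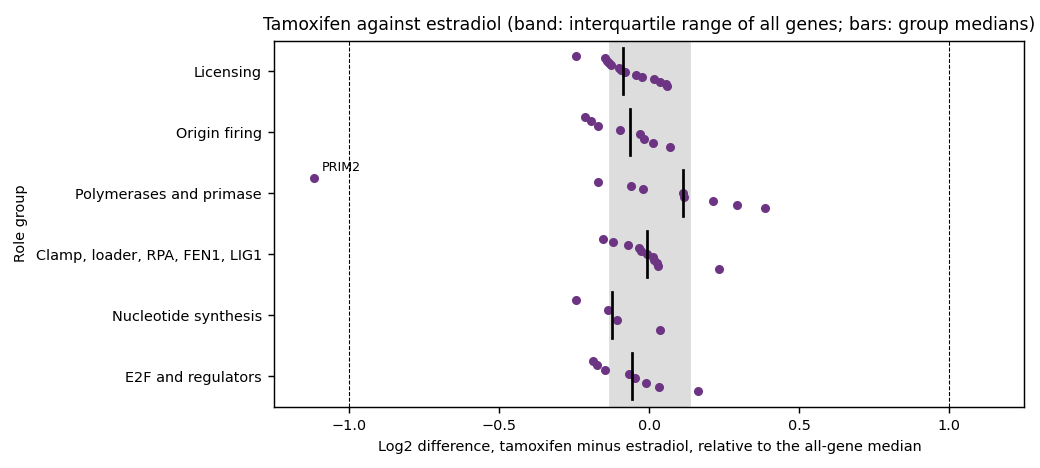
Log2 difference of tamoxifen minus estradiol, relative to the all-gene median, for each of the 54 members by role group. The short bars are group medians, the grey band is the interquartile range of all 19775 genes and dashed lines mark 2-fold. PRIM2 lies at -1.12 and the others between -0.25 and 0.39.

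Readings of 1 gene by its several probe sets can be compared. They come from the same arrays and cultures, so their spread measures no error between arrays or between treatments. Of the 30 members with several probe sets, 13 (43.3%) had all of them on the same side of the all-gene median for estradiol minus vehicle, against 45.2% of 10523 genes. The shares were 43.3% and 41.4% for tamoxifen minus vehicle. The range within a member had a median of 0.47 and 0.51 in the comparisons with vehicle and 0.21 between the treated arrays. Probe sets at 0.5 or more on both sides of 0 were seen for MCM4 in both comparisons with vehicle and for RRM1 and CDC25A with tamoxifen. The plot of single probe sets shows CDT1, MCM7, MCM5, E2F1, GINS3, POLD3, TK1 and RFC2 with all symbols of both treatments below 0, and RFC5 and ORC4 with all of them above it.

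**Figure D4:**
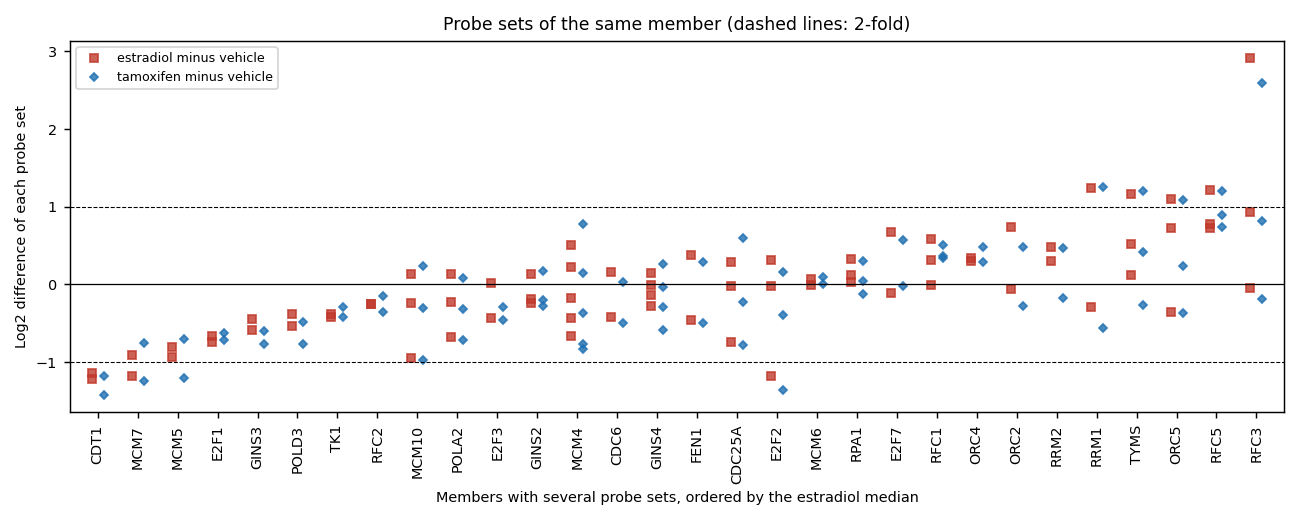
Log2 difference from vehicle of each probe set, relative to the all-gene median, for the 30 members with several probe sets, with estradiol (squares) and tamoxifen (diamonds) side by side and dashed lines at 2-fold. CDT1 has all its symbols between -1.42 and -1.14, whereas those of RFC3 run from -0.19 to 2.92.

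Members with an E2F word and members without one overlapped throughout. The 24 with a match had a median of -0.13 for estradiol minus vehicle, with 16 below the all-gene median and a range from -1.18 to 0.93. The 23 without had a median of 0.13, with 10 below and a range from -1.18 to 0.78. For tamoxifen minus vehicle the medians were -0.23 and 0.045, with 15 of 24 and 11 of 23 below. By role the word was found in 7 of 12 licensing promoters, 4 of 7 of origin firing, 4 of 8 of polymerases, 3 of 9 of the clamp group, 1 of 4 of nucleotide synthesis and 5 of 7 of regulators. This split is a description of these arrays and carries no test.

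Gene length moved with the differences from vehicle. Across the 54 members, which share these arrays and are not replicates, Spearman's rho between gene length and the difference was 0.38 for estradiol, 0.28 for tamoxifen and -0.074 between the treated arrays. Across 19731 genes the values were 0.21, 0.20 and -0.0080. Members shorter than their median of 33.4 kb had 20 of 27 below the all-gene median with estradiol, and longer ones 12 of 27. Their median estradiol differences were -0.13 and 0.035. Over all genes split at that length, the medians were -0.056 for 11475 shorter and 0.065 for 8256 longer genes. The part of gene length in the members' values was not tested.

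Genes next to the members in the pathway were taken from lists of non-members. Of 29 measured of 30 other replication genes, 5 were at least 1.5-fold lower and 3 higher with estradiol, and the same counts were found with tamoxifen. Of all genes 8.74% were that much lower and 6.42% higher with estradiol, and 8.87% and 6.35% with tamoxifen. Their medians were -0.012 and -0.065. RNASEH2A, which removes RNA from DNA, was lowest at -1.03 and -1.07, the histone chaperone ASF1A highest with estradiol at 0.83, and TOP1, which relaxes DNA ahead of the fork, highest with tamoxifen at 1.12 from probe sets at 0.30 and 1.94. Between the treated arrays TIPIN, a fork protection factor, was at -0.40 and TOP1 at 0.41.

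Upstream G1/S control was measured for 21 of 22 genes. MYC, a driver of growth and cell cycle entry, read -0.47 on the vehicle, 1.71 on the estradiol and 0.78 on the tamoxifen array, and differences were 2.18 for estradiol, 1.14 for tamoxifen and -1.04 between them. Each array thus had its own MYC value, read by 1 probe set. Between the treated arrays 53 of 54 members were within 1.5-fold, and the share past it (1.85%) was near the 2.11% of all genes. CCNE2, a cyclin of G1/S, was at 1.17 and 1.39, though its 2 probe sets read 0.00042 and 2.35 with estradiol. The 2 probe sets of CCND1, the gene of cyclin D1, went opposite ways, at -0.32 and 0.98 with estradiol and -0.96 and 1.21 with tamoxifen. CDKN1A, the inhibitor p21, was lowest at -1.09 and -1.08, and RBL2, a retinoblastoma relative, highest with tamoxifen at 1.53 and at 0.42 against estradiol.

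Of the fork checkpoint and repair list 14 of 19 genes were measured. RAD9A, of the checkpoint clamp, was lowest at -1.63 and -1.51, and WEE1, the kinase that restrains CDK1, highest at 1.20 and 1.10. Between the treated arrays HUS1, RAD9A's partner, was lowest at -0.33 and the helicase BLM highest at 0.22. The HUS1 probe sets ran from -0.39 to 0.19 there, so no direction can be given for it. Of the 20 G2/M genes, 11 were at least 1.5-fold higher and 0 lower in each comparison with vehicle, where 6.42% and 8.74% of all genes were so with estradiol and 6.35% and 8.87% with tamoxifen. CDK1, the mitotic kinase, was highest at 2.02 and 1.70, and AURKB lowest at -0.33 and -0.090 from probe sets of both signs. The CDK1 probe sets ran from 0.45 to 3.13 with estradiol and from 0.29 to 3.68 with tamoxifen. In tamoxifen minus estradiol BUB1B was at -0.37 and NUSAP1 at 0.35.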

How the data were processed

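Total RNA from 3 T47D cultures, 1 per group, was hybridised to 1 array each. The authors made the deposited values with RMA, a normalization of Affymetrix probe signals, per the submitters' processing notes, with no version named. The deposited values are taken as log2 and lie on both sides of 0, from which a subtracted centre for each probe set is inferred; no label records it. Log base 2 cannot be checked on such values, and folds depend on it. Of 54675 probe sets, 41097 had 1 gene symbol and were used, 1801 had several and 11777 were unnamed here. Entrez identifiers of 41043 matched a RefSeq gene table, and 0 symbols changed. Differences between arrays were taken per probe set, the median over a gene's probe sets was its value, and the median difference over 19775 genes was subtracted. With 1 array per group no test, SD or p-value was possible, and the number of arrays limits precision.

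The members and gene lists were chosen with earlier results of these data known. Members were given with their value on each array and their probe sets if they differed at least 2-fold in any comparison or were highest or lowest of their role group. Of non-member lists the highest and lowest gene in each comparison was named, with MYC, CCND1, CCNE2 and CDK1. Python 3.11.15, pandas 2.3.3 and SciPy 1.17.1 were used. The calculation was run on shuffled differences of these arrays with known shifts added, which checks the arithmetic only. Alternatives were values as deposited, probe sets without the suffixes _s_at, _x_at and _a_at, the mean over probe sets, quantile normalization and a cutoff of 1.5-fold. Promoter coordinates are of GRCh38.p14, and the array values carry no build.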

Additional observations from a re-analysis of the deposited data

How the results depend on the processing

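Leaving out probe sets with the suffixes _s_at, _x_at and _a_at removed 12 of 54 members, CDT1, MCM7 and POLE among them, and members at least 2-fold different then numbered 1 instead of 4 for estradiol minus vehicle and 2 instead of 4 for tamoxifen minus vehicle, against 3.16% and 3.39% of the genes left. A cutoff of 1.5-fold gave 14 and 16 of 54, against 15.2% of all genes in both comparisons. Quantile normalization left 0 members past 2-fold for tamoxifen minus estradiol, with PRIM2 at -0.88 instead of -1.12. Against vehicle it counted 6 members for estradiol and 4 for tamoxifen, against 4.8% and 4.24% of all genes, with GINS3 and E2F1 past 2-fold in both and MCM7 and PRIM2 no longer so with tamoxifen. It widened ORC1 to -1.99 and -2.05 against vehicle and CDT1 to -1.82 and -1.88. The SD of all probe sets within an array was 0.19 for vehicle, 0.41 for estradiol and 0.44 for tamoxifen. Quantile normalization makes these spreads equal and so stretches vehicle values far from 0. The wider differences and the added genes are therefore no independent check. The members' median for tamoxifen minus estradiol was -0.040 and turned to 0.075 in the values as deposited, where the all-gene median is not subtracted. The medians against vehicle stayed below 0 under the alternatives run, from -0.19 to -0.030 for estradiol and from -0.27 to -0.074 for tamoxifen. RFC3 was at 0.44 and 0.31 against vehicle without the suffixed probe sets, and at 1.27 for estradiol with probe sets averaged. Without replicates no library could be left out of a group, and centred values do not show which probe sets were near background.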
